A study of Mus musculus with 12 samples.

Results

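Clec1b, Mtmr7, Ddx4, Tmem26, Oit3, Car9, Prune2, Plekhf1 and Aldh1b1 are 9 of 18193 measured genes, and they belong to none of the usual families of interferon-stimulated genes. They were chosen from the array values themselves, because the arrays of IFNAR-/- mice lay below those of wildtype mice over both days. Their genotype differences are therefore a description here and carry no test, whereas their changes over time were tested. "Lost" is too strong a word for what the values show: the 9 genes were lower without the receptor, and a ratio cannot tell whether a transcript was still present.

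Pulmonary CD11c+ cells were taken from wildtype mice and from IFNAR-/- mice, in which the type I interferon receptor is missing. All 12 mice, the wildtype controls included, had received Pneumocystis, a fungus that lives in the lung, into the trachea. There were 4 groups of 3 mice, each genotype 7 and 14 days after infection, with 1 array per mouse, and the labels give no uninfected group, strain, sex or age. CD11c+ cells were enriched with magnetic beads to a purity above 90%, with under 5% lymphocytes, so each array is a mixture of cells, and fewer cells of a type cannot be told apart from less RNA per cell. The study asked whether CD11c+ cells of the infected lung start type I interferon signalling and whether the inflammatory response depends on it.

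Type I interferons bind a receptor made of IFNAR1 and IFNAR2, whose signal acts on the interferon-stimulated response element (ISRE) in front of genes such as Oas1a and Mx1, which encode antiviral proteins. Genes outside these families can depend on the receptor as well, through later factors or through the kind and state of the cells that are present. CD11c is carried by lung dendritic cells and alveolar macrophages, and both respond to type I interferon.

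The region before the gene start was read for 7 of the 9 genes from RefSeq promoter windows on build GRCm38.p6, which hold no entry for Mtmr7 and Oit3. The 250 bases before the start are shown for Oas1a as a classical target and for Car9, Clec1b, Ddx4 and Plekhf1, because these differ in which of the searched motifs they hold. Capitals mark every searched motif.
Oas1a (chr5:120907526-120907775, minus strand): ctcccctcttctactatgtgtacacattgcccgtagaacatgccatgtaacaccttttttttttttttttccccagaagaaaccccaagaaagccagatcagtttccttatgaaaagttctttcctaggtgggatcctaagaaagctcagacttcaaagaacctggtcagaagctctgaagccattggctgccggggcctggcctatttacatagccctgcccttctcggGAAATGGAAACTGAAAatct
Car9 (chr4:43506776-43507025, plus strand): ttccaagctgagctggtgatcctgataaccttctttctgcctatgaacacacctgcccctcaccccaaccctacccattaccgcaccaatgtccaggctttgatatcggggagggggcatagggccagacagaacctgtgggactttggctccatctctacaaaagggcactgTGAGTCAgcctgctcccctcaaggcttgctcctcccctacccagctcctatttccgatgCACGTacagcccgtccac
Clec1b (chr6:129397047-129397296, plus strand): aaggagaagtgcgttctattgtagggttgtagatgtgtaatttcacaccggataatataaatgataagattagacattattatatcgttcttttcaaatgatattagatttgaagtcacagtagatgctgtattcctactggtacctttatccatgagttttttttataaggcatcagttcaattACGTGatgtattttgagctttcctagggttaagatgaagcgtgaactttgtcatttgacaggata
Ddx4 (chr13:112652311-112652560, minus strand): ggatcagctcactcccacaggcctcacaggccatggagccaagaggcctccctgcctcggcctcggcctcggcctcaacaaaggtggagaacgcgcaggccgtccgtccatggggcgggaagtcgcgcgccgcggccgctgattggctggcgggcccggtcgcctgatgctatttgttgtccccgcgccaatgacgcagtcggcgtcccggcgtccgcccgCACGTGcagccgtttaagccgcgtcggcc
Plekhf1 (chr7:38227995-38228244, minus strand): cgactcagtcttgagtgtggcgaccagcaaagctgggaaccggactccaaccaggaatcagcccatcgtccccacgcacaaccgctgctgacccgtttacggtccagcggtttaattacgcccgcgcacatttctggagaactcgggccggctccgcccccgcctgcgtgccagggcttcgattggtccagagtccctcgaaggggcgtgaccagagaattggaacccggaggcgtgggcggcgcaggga

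Both strands were searched. The Oas1a window held 2 overlapping ISREs (GAAA, any 2 bases, GAAA), GAAATGGAAA and GAAACTGAAA, which ended 11 and 5 bases before the start. None of the 7 windows held an ISRE, which 2.98% of 32851 promoter windows of the same length held. The window of Irf7, itself an interferon-stimulated gene, held no ISRE either, so its absence is not particular to the 7. None of the 7 held the composite site of PU.1 and IRF factors (GGAA, any 2 bases, GAAA) either, against 2.30% of all windows. The core of the hypoxia response element (ACGTG) was present in 3 of the 7, Car9, Clec1b and Ddx4, against 16.6% of all windows. In Ddx4 it matched on both strands within 1 E-box (CACGTG, 6.02% of windows). Car9 also held an AP-1 site (TGANTCA, 6.75% of windows), which ended 71 bases before the start, and Prune2 a PU.1 core (GAGGAAG, 10.6% of windows). Plekhf1, Tmem26 and Aldh1b1 held none of the 6 motifs. These are matches of letters in a short window, and binding was not measured.

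Values are log2 ratios of each gene to about its own median over the 12 arrays, so a gene can be compared between arrays and not with another gene. Array quality bears on some of the groups. IFNAR-/- day 7 mouse 3 stood apart, with median log2 ratios of 2.13 for lung epithelial and 2.29 for endothelial markers, and wildtype day 7 mouse 1 had 1.86 and 1.53. The other 10 arrays lay between -0.48 and 0.37 for epithelial and between -0.39 and 0.30 for endothelial markers. On IFNAR-/- day 7 mouse 3 the median of neutrophil markers was 1.92, against -0.44 to 0.32 in the other 11. That of fibroblast markers was 1.79, against -0.35 to 0.71. IFNAR-/- day 7 mouse 3 was also the only array high in the Y-linked gene Eif2s3y, at 2.89 against -0.05 to 0.20 in the other 11. The X-linked transcript Xist was at -3.98 on this array against -1.20 to 1.21 in the other 11, so sex may differ within this group. IFNAR-/- day 14 mouse 2 had the widest spread of values. Itgax, which encodes CD11c, ranged from -0.28 to 0.25 over all 12 arrays. Eif2s3y, Xist and Itgax were named after their values were seen. The 5' over 3' signal of the actin and Gapdh controls, a sign of RNA integrity, lay between -0.91 and -0.18 (log2) in wildtype day 14 arrays and between 0.06 and 0.18 in wildtype day 7 and IFNAR-/- day 14 arrays. In IFNAR-/- day 7 arrays it ran from -0.52 to 0.11 and so reached into the wildtype day 14 range. Signal from the poly-A spike-ins ranged from -3.63 to -2.06 in wildtype day 14 arrays, from 0.88 to 2.20 in wildtype day 7, from -1.89 to 0.17 in IFNAR-/- day 14 and from -3.82 to 1.45 in IFNAR-/- day 7 arrays. These signals moved with time in wildtype cells and with genotype at day 14. The median difference over all genes was 0.00 between genotypes and 0.02 over time in either genotype.

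For the receptor gene Ifnar1 the day 7 values were 0.08, 0.64 and 0.07 in wildtype mice against -0.53, -1.38 and -0.26 in IFNAR-/- mice. Its day 14 values were -0.15, 0.07 and 0.11 against 0.10, -1.01 and 0.39, so the arrays of the genotypes were apart at day 7 and overlapped at day 14. The difference was -0.98 ± 0.35 (SE) at day 7 (limma adjusted p = 0.208) and -0.19 ± 0.35 at day 14 (adjusted p = 0.821). Over both days it was -0.59 ± 0.25 (adjusted p = 0.263), and none of these passed. The mean of its probe sets is no clean check of the genotype, since which part of the gene is altered is not given. Of 41 measured type I interferon-stimulated genes, 24 were lower and 0 higher in IFNAR-/- cells over both days (limma, Benjamini-Hochberg over all genes), with a median difference of -0.92. Over all 18193 genes 2.49% were lower and 1.70% higher by the same test. Oas1a differed by -2.64 ± 0.15 (SE, adjusted p = 8.11e-06), Ifi27l2a by -2.86 ± 0.26 (adjusted p = 0.000367) and Slfn8 by -1.99 ± 0.19 (adjusted p = 0.000367).

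For all 9 genes the highest IFNAR-/- array was below the lowest wildtype array on either day, as the plot of the 9 genes by array shows. Of all genes, 2.05% did so (373 of 18193), and the choice of the 9 used this direction. In 5 of the 9, Clec1b, Mtmr7, Car9, Prune2 and Aldh1b1, all 6 IFNAR-/- arrays lay below all 6 wildtype arrays, which held for 0.781% of all genes. The gap between the lowest wildtype and the highest IFNAR-/- array was 0.08 on the log2 scale for Mtmr7 and Aldh1b1, which lie just inside this separation, and -0.30 for Oit3, which lies just outside it. The median genotype difference of the 9 genes was -1.91 at day 7 and -1.85 at day 14.

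**Figure D1:**
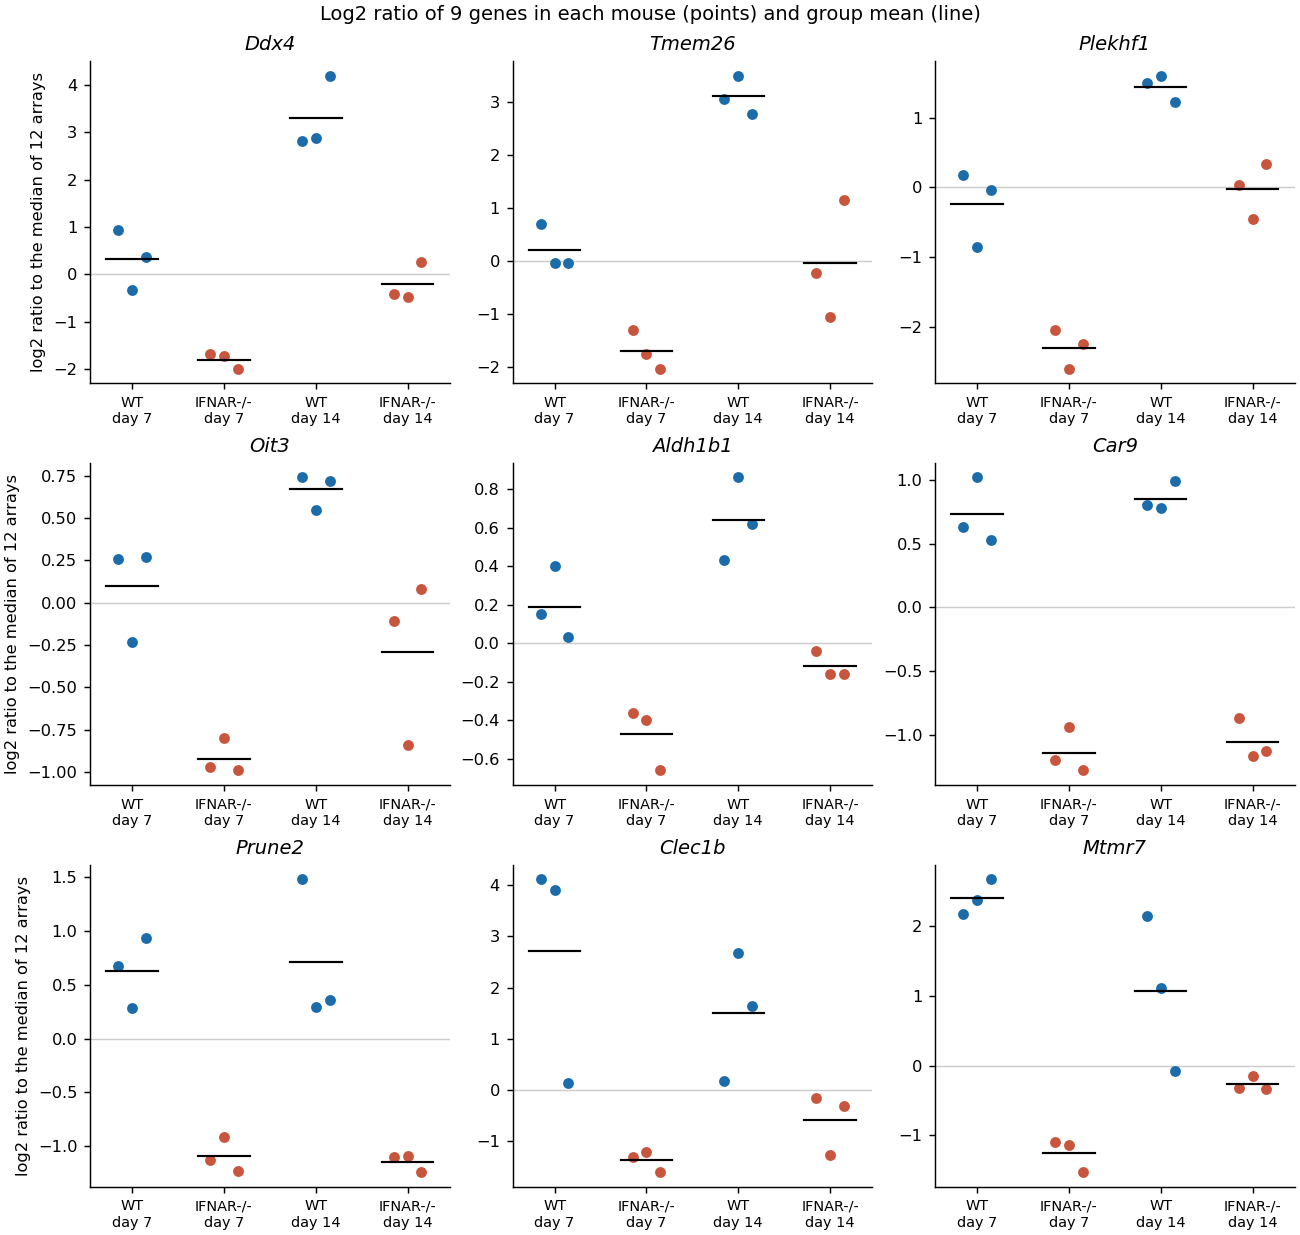
Log2 ratio to the median of the 12 arrays (y axis) of each of the 9 genes in every mouse (points, wildtype blue and IFNAR-/- red) by genotype and day, with the group mean as a line. Red points lie below the blue points of the same day in every panel; Car9 and Prune2 are level between the days, Ddx4, Tmem26 and Plekhf1 are higher at day 14 in both genotypes, and Clec1b and Mtmr7 have their highest mean in wildtype at day 7.

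Car9 encodes carbonic anhydrase IX, a membrane enzyme that hydrates carbon dioxide outside the cell and is a standard target of hypoxia-inducible factor. Wildtype mice had 0.63, 1.02 and 0.53 at day 7, against -1.20, -0.94 and -1.28 in IFNAR-/- mice. At day 14 the wildtype values were 0.80, 0.78 and 0.99 and those without the receptor -0.87, -1.17 and -1.13. The genotypes did not overlap on any array, with a gap of 1.41 between the lowest wildtype and the highest IFNAR-/- array, the second widest of all 18193 genes in this direction. The genotype difference was -1.87 ± 0.15 (SE, n = 3 per group) at day 7 and -1.91 ± 0.15 at day 14, or 3.70-fold over both days. Over time Car9 differed by 0.12 ± 0.15 in wildtype cells (95% interval -0.20 to 0.45, limma adjusted p = 0.701) and by 0.08 ± 0.15 in IFNAR-/- cells (-0.25 to 0.40, adjusted p = 0.746). The change of the genotype difference between the days was -0.04 ± 0.21 (95% interval -0.51 to 0.42, adjusted p = 0.942).

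Among 25 measured hypoxia-inducible genes other than Car9, 0 were called higher or lower in IFNAR-/- cells over both days, with a median difference of -0.03. At day 7 alone, where 1.35% of all genes were lower and 1.29% higher, 1 was lower, the transcription factor Bhlhe40 at -0.98 ± 0.18 (adjusted p = 0.0184). Of 15 measured carbonic anhydrases other than Car9, 1 was lower over both days, the cytosolic Car13 at -0.73 ± 0.16 (adjusted p = 0.0263), and 0 were higher. The median of that family was -0.04. Over time in IFNAR-/- cells 7 of the 25 hypoxia-inducible genes rose and 0 fell, against 4.08% and 8.25% of all genes. In wildtype cells 2 rose, the prolyl hydroxylase Egln3 by 1.78 ± 0.28 (adjusted p = 0.00469) and Ankrd37 by 1.27 ± 0.32 (adjusted p = 0.0341), and 1 fell, the growth factor Vegfa at -1.74 ± 0.45 (adjusted p = 0.0376), where 3.88% of all genes rose and 4.10% fell. Another carbonic anhydrase, Car2, which the osteoclast lineage uses to acidify, rose by 2.53 ± 0.37 in wildtype (adjusted p = 0.00334) and by 2.32 ± 0.37 in IFNAR-/- cells (adjusted p = 0.00324). Car4, a membrane-bound member, fell in wildtype cells and was at -1.73 ± 0.30 (adjusted p = 0.00691). It is also on the list of alveolar macrophage markers used below. Car13 rose in IFNAR-/- cells, by 0.91 ± 0.22 (adjusted p = 0.0225), so that 2 of the 15 rose and 0 fell there.

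Prune2 encodes a large protein with a BCH domain, a lipid- and protein-binding fold. As the mean of its 4 probe sets, day 7 values were 0.67, 0.28 and 0.93 in wildtype mice and -1.13, -0.91 and -1.23 in IFNAR-/- mice. Those of day 14 were 1.48, 0.29 and 0.36 and -1.10, -1.09 and -1.24, in the same order. The 6 IFNAR-/- arrays lay within a narrow band well below all 6 wildtype arrays, with a gap of 1.19, the third widest of all genes in this direction. The difference was -1.72 ± 0.27 (SE) at day 7 and -1.85 ± 0.27 at day 14. Neither time comparison passed: the change was 0.08 ± 0.27 in wildtype (95% interval -0.52 to 0.68, adjusted p = 0.910) and -0.06 ± 0.27 in IFNAR-/- cells (-0.66 to 0.54, adjusted p = 0.907).

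The Prune2 probe sets disagreed. On 1432198_at the 3 wildtype mice of day 7 read 1.44, 1.03 and 1.84, and the 3 of day 14 read 3.66, 1.05 and 0.91. Without the receptor the readings were -3.64, -3.28 and -3.33 on day 7 and -3.36, -3.36 and -3.45 on day 14, a difference of -5.06 ± 0.40 (SE) over both days. On 1455342_at the difference was -1.93 ± 0.32, with wildtype arrays between 0.11 and 1.96 and IFNAR-/- arrays between -1.83 and -0.14. The other two probe sets showed no such gap. The difference over both days was 0.05 ± 0.09 on 1430757_at and -0.20 ± 0.15 on 1439274_at. The genotypes overlapped at both days on the first and at day 14 on 1439274_at, where they were apart at day 7 by a narrow margin, with a lowest wildtype value of -0.12 and a highest IFNAR-/- value of -0.21. The mean of the gene therefore rests on 2 of its 4 probe sets, as the plot of single probe sets shows. Of the 7 measured genes of the BCH-domain and prune family other than Prune2, 0 passed the test between genotypes over both days, at day 7 (2.64% of all genes in either direction) or at day 14 (5.04%). Over time 1 of them rose in both genotypes, Mcf2l, by 1.92 ± 0.27 in wildtype (adjusted p = 0.00251) and by 0.95 ± 0.27 in IFNAR-/- cells (adjusted p = 0.0399).

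**Figure D2:**
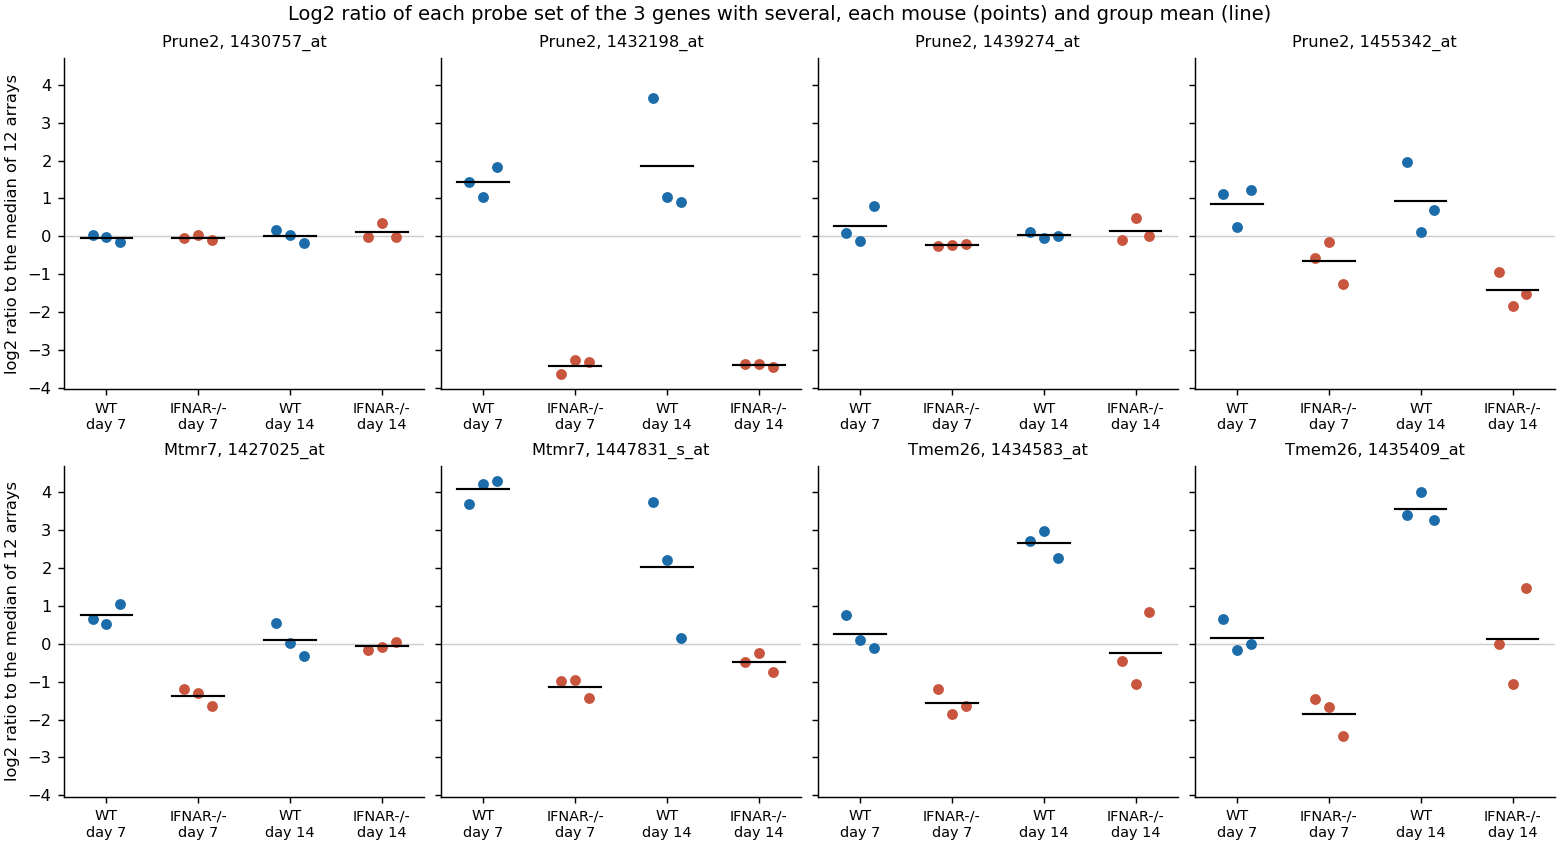
Log2 ratio (y axis) of every probe set of Prune2, Mtmr7 and Tmem26 in each mouse (points, wildtype blue and IFNAR-/- red) by genotype and day, with the group mean as a line. Genotypes are apart on 1432198_at and 1455342_at of Prune2 at both days and overlap on 1430757_at at both days and on 1439274_at at day 14, whereas both probe sets of Tmem26 show one pattern.

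Ddx4 encodes the RNA helicase known as Vasa, a standard marker of germ cells, where it serves the piRNA pathway that silences transposons. Wildtype mice had 0.94, -0.33 and 0.37 at day 7, against -1.69, -1.72 and -1.99 in IFNAR-/- mice. At day 14 the wildtype values were 2.81, 2.87 and 4.19 and those without the receptor -0.41, -0.47 and 0.26. Every day 14 array lay above every day 7 array of the same genotype, and the wildtype day 14 arrays lay above all others. Between genotypes it differed by -2.13 ± 0.39 (SE) at day 7 and -3.50 ± 0.39 at day 14. Ddx4 rose by 2.96 ± 0.39 from day 7 to day 14 in wildtype cells, or 7.81-fold (limma adjusted p = 0.00181), and by 1.60 ± 0.39, or 3.03-fold, in IFNAR-/- cells (adjusted p = 0.0225). The change of the genotype difference between the days was -1.37 ± 0.55 (95% interval -2.57 to -0.17, adjusted p = 0.214).

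Of 21 other germline and piRNA pathway genes measured, 1 was lower in IFNAR-/- cells over both days and 0 were higher, with a median difference of -0.05. That gene was Piwil2, a Piwi protein of the same pathway, at -1.12 ± 0.21 (adjusted p = 0.0147). Piwil2 was also the 1 gene of the 21 that rose over time in wildtype cells, by 2.16 ± 0.30 (adjusted p = 0.00245), and 0 fell. In IFNAR-/- cells 0 rose and 1 fell, the meiotic chromosome gene Sycp3 at -0.64 ± 0.12 (adjusted p = 0.0059). The genes named here for time were named after their values were seen, as were those given for time in the lists of the other genes.

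Tmem26 encodes a membrane protein used as a marker of beige fat cells. Day 7 values were 0.70, -0.04 and -0.05 in wildtype mice and -1.31, -1.76 and -2.04 in IFNAR-/- mice. Those of day 14 were 3.06, 3.50 and 2.77 and -0.23, -1.06 and 1.15, in the same order. As with Ddx4, each genotype was higher at day 14 on every array, and the IFNAR-/- day 14 arrays were widely spread. The genotype difference was -1.91 ± 0.46 (SE) at day 7 and -3.16 ± 0.46 at day 14. Tmem26 rose by 2.91 ± 0.46 in wildtype (7.50-fold, adjusted p = 0.00464) and by 1.66 ± 0.46 in IFNAR-/- cells (3.15-fold, adjusted p = 0.0382). Both of its probe sets rose in wildtype cells, by 2.41 ± 0.41 on 1434583_at (adjusted p = 0.00833 over all probe sets) and by 3.41 ± 0.52 on 1435409_at (adjusted p = 0.00483). In IFNAR-/- cells the change was 1.32 ± 0.41 on the first (adjusted p = 0.0725) and 1.99 ± 0.52 on the second (adjusted p = 0.0368).

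Plekhf1 encodes phafin1, a protein with a PH and a FYVE domain that binds phosphoinositides on endosomes and lysosomes. The 3 wildtype mice of day 7 read 0.17, -0.86 and -0.04, and the 3 of day 14 read 1.50, 1.60 and 1.22. Without the receptor the readings were -2.05, -2.60 and -2.24 on day 7 and 0.03, -0.46 and 0.33 on day 14. The IFNAR-/- arrays at day 14 overlapped the range of the wildtype arrays at day 7, and all other pairs of groups were apart. Between genotypes it differed by -2.05 ± 0.27 (SE) at day 7 and -1.47 ± 0.27 at day 14. Plekhf1 rose by 1.69 ± 0.27 in wildtype (3.22-fold, adjusted p = 0.00506) and by 2.27 ± 0.27 in IFNAR-/- cells (4.81-fold, adjusted p = 0.00108). Of 23 other FYVE-domain proteins of the endosomal system measured, 1 was lower in IFNAR-/- cells over both days, Wdfy2 at -0.77 ± 0.13 (adjusted p = 0.0104), 0 were higher, and their median difference was -0.05. Over time in wildtype cells 2 of the 23 rose, Wdfy2 by 1.03 ± 0.19 (adjusted p = 0.00906) and Rufy3 by 0.70 ± 0.13 (adjusted p = 0.00882), and 1 fell, Zfyve26 at -0.91 ± 0.25 (adjusted p = 0.0468). In IFNAR-/- cells 1 rose, Fgd2 by 1.07 ± 0.20 (adjusted p = 0.00631), and 4 fell, Fgd4, Zfyve1, Zfyve16 and Zfyve26, at -1.48 to -0.78.

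Oit3 encodes a secreted protein with a zona pellucida domain that is best known from the liver. Wildtype mice had 0.26, -0.23 and 0.27 at day 7, against -0.97, -0.80 and -0.99 in IFNAR-/- mice. At day 14 the wildtype values were 0.74, 0.55 and 0.72 and those without the receptor -0.11, -0.84 and 0.08. Wildtype arrays were higher at day 14 throughout, and IFNAR-/- day 14 mouse 2 stayed in the range of the day 7 arrays. The genotype difference was -1.02 ± 0.21 (SE) at day 7 and -0.96 ± 0.21 at day 14. The change over time was 0.57 ± 0.21 in wildtype (adjusted p = 0.138) and 0.63 ± 0.21 in IFNAR-/- cells (adjusted p = 0.0787), neither of which passed. Without IFNAR-/- day 14 mouse 2 both passed, at 0.57 (adjusted p = 0.026) and 0.91 (adjusted p = 0.00828). Averaged over genotypes Oit3 rose by 0.60 ± 0.15 (adjusted p = 0.0204).

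Aldh1b1 encodes a mitochondrial aldehyde dehydrogenase that oxidises acetaldehyde and retinaldehyde. Day 7 values were 0.15, 0.40 and 0.03 in wildtype mice and -0.36, -0.40 and -0.66 in IFNAR-/- mice. Those of day 14 were 0.43, 0.86 and 0.62 and -0.04, -0.16 and -0.16, in the same order. The spread within groups was small and so was the difference between genotypes, the smallest of the 9, at -0.67 ± 0.14 (SE) at day 7 and -0.76 ± 0.14 at day 14. The change over time was 0.44 ± 0.14 in wildtype (adjusted p = 0.0789) and 0.35 ± 0.14 in IFNAR-/- cells (adjusted p = 0.125). Averaged over genotypes Aldh1b1 rose by 0.40 ± 0.10 (adjusted p = 0.0192). Of 18 other aldehyde dehydrogenases, 1 was lower in IFNAR-/- cells over both days, Aldh18a1, which acts in proline synthesis, at -0.53 ± 0.13 (adjusted p = 0.043), and 0 were higher. In wildtype cells 0 of the 18 were called over time. In IFNAR-/- cells Aldh6a1 (-2.40 ± 0.44, adjusted p = 0.00604) and Aldh9a1 (-0.69 ± 0.18, adjusted p = 0.0314) fell.

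In all, 3 of the 9 genes rose between the days in wildtype cells, Ddx4, Tmem26 and Plekhf1, where 3.88% of all genes rose and 7.98% changed in either direction. The same 3 rose in IFNAR-/- cells, where 4.08% of all genes rose. With Oit3 and Aldh1b1, 5 of the 9 rose when the genotypes were averaged, against 6.38% of all genes, and none of the 9 fell in any of these tests, in which 4.10%, 8.25% and 9.94% of all genes fell. The time comparisons are orthogonal to the mean genotype difference, but they use the arrays of the genotype differences at each day, of which some were known to be large. The calls in wildtype cells held in each of 26 alternative fits, also after adding the 5' over 3' control ratio to the model (adjusted p = 0.0487 for Ddx4, 0.0488 for Tmem26 and 0.0367 for Plekhf1). That covariate ended the Tmem26 call in IFNAR-/- cells (1.52, adjusted p = 0.0847) and the averaged Oit3 call (0.57, adjusted p = 0.0504). In IFNAR-/- cells Plekhf1 held in 26 of 26, Ddx4 in 19 and Tmem26 in 14. Leaving out any 1 of the 3 IFNAR-/- day 7 arrays, or IFNAR-/- day 14 mouse 3, ended both the Ddx4 call (1.37 to 1.65, adjusted p from 0.0535 to 0.0729) and the Tmem26 call (1.06 to 1.85, adjusted p from 0.0647 to 0.110). With a trended and robust prior Ddx4 (adjusted p = 0.0672) and Tmem26 (adjusted p = 0.0747) were not called in IFNAR-/- cells, nor was Tmem26 with only the arrays compared (adjusted p = 0.121). The Tmem26 call also ended without IFNAR-/- day 14 mouse 1 (1.75, adjusted p = 0.0539) and without wildtype day 14 mouse 1 or 2 (1.66, adjusted p = 0.0519 and 0.0506). Without both arrays high in epithelial markers the change in IFNAR-/- cells was 1.50 for Ddx4 (adjusted p = 0.0578), 1.49 for Tmem26 (adjusted p = 0.116) and 2.29 for Plekhf1 (adjusted p = 0.00375). The averaged rises of Oit3 (0.62, adjusted p = 0.0551) and Aldh1b1 (0.34, adjusted p = 0.0885) also no longer passed without these arrays. Another fit left out IFNAR-/- day 7 mouse 3 and IFNAR-/- day 14 mouse 2, called here both arrays that stand apart. Both belong to the genotype compared. Without them the change in IFNAR-/- cells was 1.63 for Ddx4 (adjusted p = 0.0912), 2.00 for Tmem26 (adjusted p = 0.0279) and 2.51 for Plekhf1 (adjusted p = 0.00438).

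The interferon-stimulated genes moved the other way. In wildtype cells 31 of the 41 fell between the days and 0 rose, with a median of -1.55, and in IFNAR-/- cells 8 fell and 2 rose, with a median of -0.42. The pair that rose was Mx1, at 1.32 ± 0.30 (adjusted p = 0.0163), and Ifi203, at 0.67 ± 0.19 (adjusted p = 0.041). Markers of alveolar macrophages fell as well, 9 of 16 in wildtype (median -1.19) and 8 of 16 in IFNAR-/- cells (median -1.10), with 0 rising in either. The median of these markers per array ranged from -0.08 to 0.71 in wildtype day 7, from -1.11 to -0.54 in wildtype day 14, from 0.69 to 0.91 in IFNAR-/- day 7 and from -0.52 to 0.05 in IFNAR-/- day 14 arrays. Over both days 4 of the 16 were higher and 0 lower in IFNAR-/- cells, the fatty acid-binding protein Fabp1 (2.86 ± 0.53, adjusted p = 0.0135), the scavenger receptor Marco (2.83 ± 0.49, adjusted p = 0.0105), Cidec (1.70 ± 0.36, adjusted p = 0.0244) and Krt79 (1.35 ± 0.29, adjusted p = 0.026). Markers of other cells moved too. Over time in IFNAR-/- cells 9 of 19 dendritic cell, 10 of 16 T cell and 5 of 12 NK cell markers rose, and 1, 0 and 0 fell. In wildtype cells 3, 0 and 0 of them rose and 6, 0 and 2 fell, and 6 of 15 monocyte markers fell. The part of the cell mixture in the rises of Ddx4, Tmem26 and Plekhf1 was not tested.

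**Figure D3:**
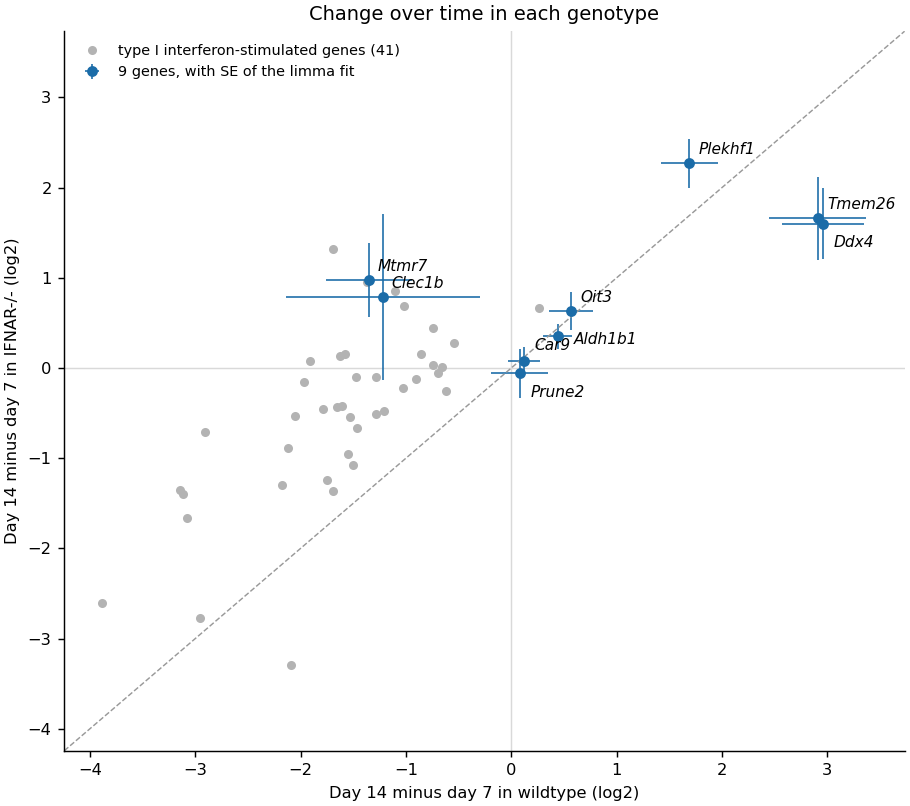
Change from day 7 to day 14 in wildtype (x axis) and in IFNAR-/- cells (y axis), both as log2 differences, for the 9 genes (blue, bars are the SE of the limma fit) and 41 interferon-stimulated genes (grey); the dashed line marks equal change. Plekhf1, Tmem26 and Ddx4 lie high on both axes, Car9 and Prune2 near 0, and most grey points left of 0.

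Clec1b encodes CLEC-2, a receptor for podoplanin that is carried by platelets and by some myeloid cells and signals through the kinase Syk. The 3 wildtype mice of day 7 read 4.12, 3.90 and 0.13, and the 3 of day 14 read 0.18, 2.67 and 1.64. Without the receptor the readings were -1.31, -1.21 and -1.61 on day 7 and -0.16, -1.28 and -0.32 on day 14. Wildtype mice of the same day were far from each other, and wildtype day 7 mouse 3 and wildtype day 14 mouse 1 lay close to the highest IFNAR-/- array. Between genotypes it differed by -4.10 ± 0.92 (SE) at day 7 and -2.09 ± 0.92 at day 14, or 8.53-fold over both days. The change over time was -1.22 ± 0.92 in wildtype (95% interval -3.23 to 0.79, adjusted p = 0.496) and 0.79 ± 0.92 in IFNAR-/- cells (-1.22 to 2.80, adjusted p = 0.584). Without wildtype day 7 mouse 3 the change in wildtype cells was -2.51 and passed (adjusted p = 0.0347), and without wildtype day 7 mouse 1 it was -0.52. Over the 12 fits that each leave out 1 array it lay between these values.

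Of 25 platelet and megakaryocyte genes measured, 2 were lower in IFNAR-/- cells over both days, the integrin Itgb3 at -0.57 ± 0.10 (adjusted p = 0.0108) and the transcription factor Nfe2 at -1.05 ± 0.26 (adjusted p = 0.0477), and 0 were higher. Their median per array stayed between -0.07 and 0.09 on all 12 arrays. Single platelet genes varied more, Pf4 from -1.01 to 1.03 and Ppbp from -0.57 to 0.90. Over time in wildtype cells 1 of the 25 rose, Itgb3 by 1.30 ± 0.14 (adjusted p = 0.00109). In the same comparison 2 fell, Thbs1 at -3.17 ± 0.50 (adjusted p = 0.0046) and Cd9 at -0.69 ± 0.17 (adjusted p = 0.0338). The part of platelets in the Clec1b values was not tested. Of 20 genes of CLEC-2 signalling and related lectins, 3 were lower, the kinases Fyn (-0.72 ± 0.11, adjusted p = 0.00472) and Tec (-0.60 ± 0.09, adjusted p = 0.00656) and the beta-glucan receptor Clec7a (-0.36 ± 0.06, adjusted p = 0.00918). Clec7a was lower at day 7, at -0.85 ± 0.09 (adjusted p = 0.000592), and this difference changed by 0.97 ± 0.12 by day 14 (adjusted p = 0.00646). At day 7, 3 of the 20 were lower and 0 higher, where 1.35% and 1.29% of all genes were. At day 14 alone neither Clec7a nor Fyn nor Tec was called. There 1 of the 20 was lower, Cblb, and 3 higher, Syk, Lat and Plcg2, against 3.29% and 1.75% of all genes. Over both days 1 gene of this list was higher, Syk itself at 0.67 ± 0.13 (adjusted p = 0.0145), with 1.00 ± 0.18 at day 14 (adjusted p = 0.013). Over time in wildtype cells 5 of the 20 fell and 1 rose, against 4.10% and 3.88% of all genes. In IFNAR-/- cells 0 fell and 6 rose, against 8.25% and 4.08%. Syk was among those that fell in wildtype cells, by 1.10, with an SE of 0.18 (adjusted p = 0.00541).

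Mtmr7 encodes a myotubularin, a phosphatase of phosphatidylinositol 3-phosphate. As the mean of its 2 probe sets, wildtype mice had 2.18, 2.38 and 2.68 at day 7, against -1.10, -1.14 and -1.53 in IFNAR-/- mice. At day 14 the wildtype values were 2.15, 1.12 and -0.07 and those without the receptor -0.32, -0.15 and -0.34. The genotypes were far apart at day 7, and at day 14 wildtype mouse 3 came within 0.08 of the highest IFNAR-/- array. Wildtype arrays were all lower, and IFNAR-/- arrays all higher, at day 14 than at day 7. The genotype difference was -3.67 ± 0.41 (SE) at day 7 and -1.34 ± 0.41 at day 14. The change of the difference between the days was 2.33 ± 0.58 (95% interval 1.05 to 3.60, adjusted p = 0.0592), which did not pass. The change over time was -1.35 ± 0.41 in wildtype (adjusted p = 0.0717) and 0.98 ± 0.41 in IFNAR-/- cells (adjusted p = 0.143). Without wildtype day 14 mouse 1 the change of the difference was 2.87 (adjusted p = 0.0123) and the change in wildtype -1.89 (adjusted p = 0.00879), and both passed. Without wildtype day 14 mouse 3 they were 1.76 and -0.78, and neither passed. The IFNAR-/- change of 0.98 passed without wildtype day 14 mouse 1 (adjusted p = 0.0405) or mouse 3 (adjusted p = 0.0298).

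Both probe sets of Mtmr7 were lower in IFNAR-/- cells at day 7, at -2.13 ± 0.21 (SE) on 1427025_at and -5.21 ± 0.65 on 1447831_s_at. At day 14 they parted, at -0.15 ± 0.21 on the first, where the genotypes overlapped, and -2.53 ± 0.65 on the second, where they did not. On 1427025_at alone the change of the difference of 1.98 ± 0.30 passed (adjusted p = 0.014 over all probe sets), and on 1447831_s_at it was 2.68 ± 0.91 (adjusted p = 0.164). Of 20 other myotubularins and enzymes of phosphatidylinositol 3-phosphate, 0 were called lower or higher over both days, and their median difference was -0.02. At day 14 alone, where 3.29% of all genes were lower, 1 was lower, Pik3r4, a subunit of the kinase that makes this lipid, at -1.22 ± 0.22 (adjusted p = 0.0136).

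In the genotype comparison at day 7, 9 of 19 dendritic cell markers were lower (median -0.75), as were 2 of 12 NK cell markers (median -0.96) and 0 of 16 T cell markers (median -0.52), and 0 of each were higher. At day 14, 4, 2 and 7 of them were higher and 0 lower, with medians of 0.24, 0.79 and 0.77. Of all genes 1.35% were lower at day 7 and 1.75% higher at day 14. Of 15 monocyte markers 2 were lower and 0 higher at day 7, and 0 lower and 4 higher at day 14. Over both days 2 of 14 neutrophil markers were higher and 0 lower (median 0.66), where 1.70% of all genes were higher. The median of the NK cell markers ranged from 0.19 to 0.51 in wildtype day 7 arrays, from -0.46 to -0.04 in wildtype day 14, from -0.57 to -0.46 in IFNAR-/- day 7 and from -0.04 to 0.65 in IFNAR-/- day 14 arrays. That of the dendritic cell markers ranged from 0.08 to 0.29, from -0.30 to -0.10, from -0.49 to -0.23 and from 0.00 to 0.22 in the same order, and that of the T cell markers from -0.09 to 0.33, from -0.31 to -0.01, from -0.53 to -0.24 and from 0.21 to 0.81. Their part in the genotype differences of Clec1b, Mtmr7 and the other genes was not tested.

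No change of the genotype difference between the days passed for any of the 9 genes, against 2.48% of all genes called in either direction (1.34% lower and 1.14% higher), and 2 of the 9 had an unadjusted p under 0.05, as did 18.1% of all genes. They were Mtmr7 and Ddx4, whose values have opposite signs. Earlier results had shown which genes differed most at which day, so this comparison is no clean test for them. For Clec1b the change was 2.01 ± 1.29 (95% interval -0.83 to 4.86, adjusted p = 0.459), for Tmem26 -1.25 ± 0.65 (95% interval -2.67 to 0.17, adjusted p = 0.34) and for Plekhf1 0.58 ± 0.38 (95% interval -0.26 to 1.42, adjusted p = 0.471). The interval of Clec1b includes 0 and the value of Mtmr7. Among the interferon-stimulated genes the difference narrowed in 10 of 41 and widened in 0. Their median difference was -1.44 at day 7 and -0.25 at day 14, with 24 and 5 called lower. At day 14 the 5 were Oas1a, Ifi27l2a, Ifit1, Usp18 and Slfn8, between -2.10 and -1.48, and Ly6e was higher at 0.83 ± 0.20 (adjusted p = 0.0414).

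**Figure D4:**
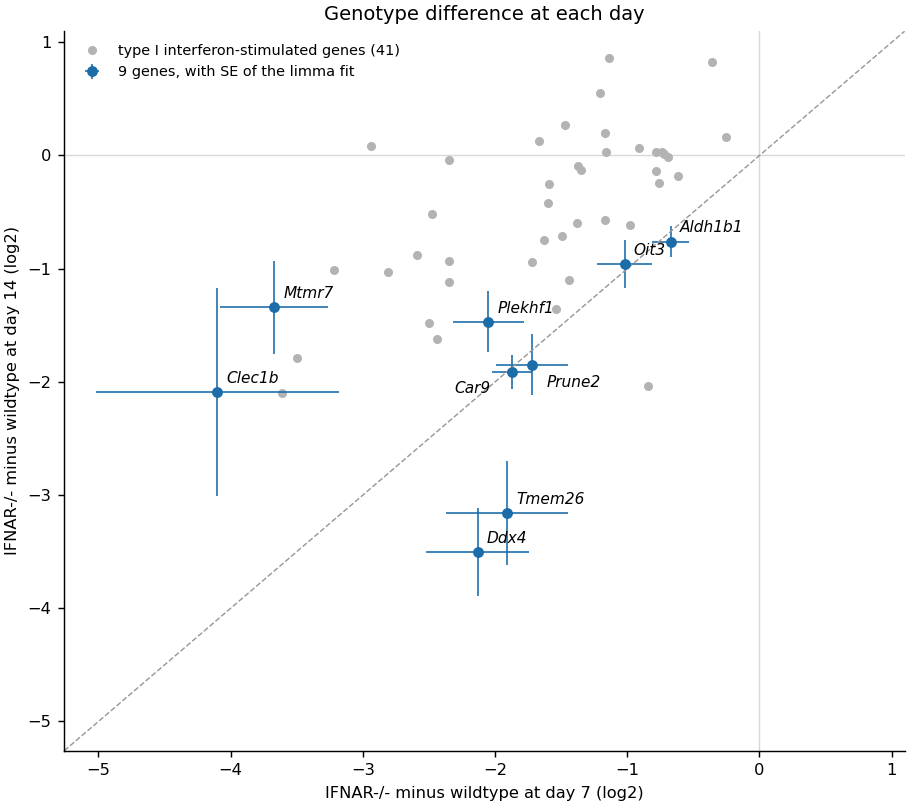
Genotype difference at day 7 (x axis) and at day 14 (y axis), IFNAR-/- minus wildtype as log2 differences, for the 9 genes (blue, bars are the SE of the limma fit) and 41 interferon-stimulated genes (grey); the dashed line marks equal differences. Car9, Prune2, Oit3 and Aldh1b1 lie on or beside the line, Ddx4 and Tmem26 below it, and Mtmr7 and Clec1b above it, where most grey points lie.

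The 9 genes did not all share 1 pattern apart from the difference that chose them. Over the 12 arrays the Pearson correlation between pairs ranged from 0.48 (Mtmr7 and Ddx4) to 0.95 (Ddx4 and Tmem26). Car9 and Prune2 had 0.92, Clec1b and Mtmr7 0.71. Among Ddx4, Tmem26, Plekhf1, Oit3 and Aldh1b1, which rose when the genotypes were averaged, pairs lay between 0.84 and 0.95. All pairs share the genotype difference, which alone makes these values positive. The genes outside the 9 most like their mean were Pop4 (r = 0.968), a subunit of RNase P, the chemokine receptor Ccr1 (0.965), the receptor Cd300ld (0.950), C1qtnf12 (0.949) and the lysosomal beta-galactosidase Glb1 (0.949). By gene, the closest were Rab3il1 for Plekhf1 (0.979), Kbtbd4 for Tmem26 (0.977), the prostacyclin receptor Ptgir for Oit3 (0.965), Ino80c for Ddx4 (0.957), Glb1 for Car9 (0.956), Ccr1 for Aldh1b1 (0.950), Dctn6 for Prune2 (0.926), Oas1a for Mtmr7 (0.926) and Pttg1 for Clec1b (0.912). Mtmr7 was thus the one gene of the 9 whose closest match is on the list of interferon-stimulated genes. Oas1a held 1.60, 1.80 and 1.59 in wildtype day 7 arrays, 0.61, 0.55 and 0.77 in wildtype day 14, -1.87, -1.36 and -2.28 in IFNAR-/- day 7 and between -1.47 and -0.97 in IFNAR-/- day 14 arrays.

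The 9 genes lie on chromosomes 4, 6, 7, 8, 10, 13 and 19, whereas Ifnar1 lies on 16. Their neighbours were taken from gene order on assembly GRCm38.p6, 25 measured genes on each side. Since the labels give no strain for either genotype, a difference due to the receptor and one due to strain cannot be told apart here. Among 438 such genes, each counted once, 16 were lower in IFNAR-/- cells over both days, or 3.65%, and 5 were higher. Among all genes 2.49% were lower and 1.70% higher. The 5 higher ones included Glipr2, between Car9 and Aldh1b1 (0.72 ± 0.16), and Plpp1, 2 measured genes from Ddx4 (0.57 ± 0.12). The others were Hnrnph3 in the window of Tmem26 (0.54 ± 0.12), Cyp4v3 in that of Mtmr7 (0.44 ± 0.10) and Nudt19 in that of Plekhf1 (0.39 ± 0.09). For Plekhf1 on chromosome 7, the next measured gene was Pop4, at -1.61 ± 0.10 (SE, adjusted p = 1.4e-05). Zfp939 and Zfp619, zinc finger genes 3 and 4 measured genes away on the same side, differed by -0.82 ± 0.10 (adjusted p = 0.00165) and -0.49 ± 0.08 (adjusted p = 0.00821), whereas 1600014C10Rik on the other side of Plekhf1 was at 0.02 ± 0.14. For Ddx4 on chromosome 13 the next measured gene was the cytokine receptor Il31ra, at -1.15 ± 0.21 (adjusted p = 0.0114), and the gene on its other side, Slc38a9, was at -0.28 ± 0.11 (adjusted p = 0.21). Neighbours further than 1 gene away were named after their values were seen.

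Car9 and Aldh1b1 both lie on chromosome 4, with 38 measured genes between them. The gene for clathrin light chain A, Clta, lies between them at -0.82 ± 0.10 (adjusted p = 0.00152), and Tbc1d2 lies 16 measured genes past Aldh1b1 at -1.56 ± 0.12 (adjusted p = 0.000131). The genes directly beside them were not called: Arhgef39 and Tpm2 beside Car9 were at 0.20 ± 0.14 and -0.09 ± 0.09, and Gm829 and Igfbpl1 beside Aldh1b1 at 0.10 ± 0.08 and 0.06 ± 0.07. Clec1b on chromosome 6 sits among other lectin genes, of which Clec12b (-0.19 ± 0.18) and Clec1a (0.21 ± 0.41) are adjacent and did not pass. Further along, Clec7a, 2 genes away (-0.36 ± 0.06, adjusted p = 0.00918), Tmem52b, 4 away (-0.75 ± 0.18, adjusted p = 0.0434), and Clec2i (-0.37 ± 0.09, adjusted p = 0.0379) were lower. Beside Mtmr7 on chromosome 8, Vps37a (-0.24 ± 0.08, adjusted p = 0.122) and Adam24 (0.14 ± 0.07) did not pass, while Cldn23, 14 genes away, was at -0.87 ± 0.16 (adjusted p = 0.0133). Tmem26 lies between Cabcoco1 (0.14 ± 0.12) and Rhobtb1 (0.02 ± 0.10), Oit3 between Pla2g12b (-0.02 ± 0.08) and Mcu (-0.17 ± 0.08), and Prune2 between Foxb2 (0.03 ± 0.12) and Gcnt1 (-0.44 ± 0.25), none of which passed. Of the 50 genes around Prune2 and the 50 around Tmem26, 0 were called lower. Around Clec1b, Mtmr7, Car9 and Plekhf1 it was 3 of 50 each, around Ddx4 and Aldh1b1 2 each, and around Oit3 1. Around Clec1b 0 were higher.

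**Figure D5:**
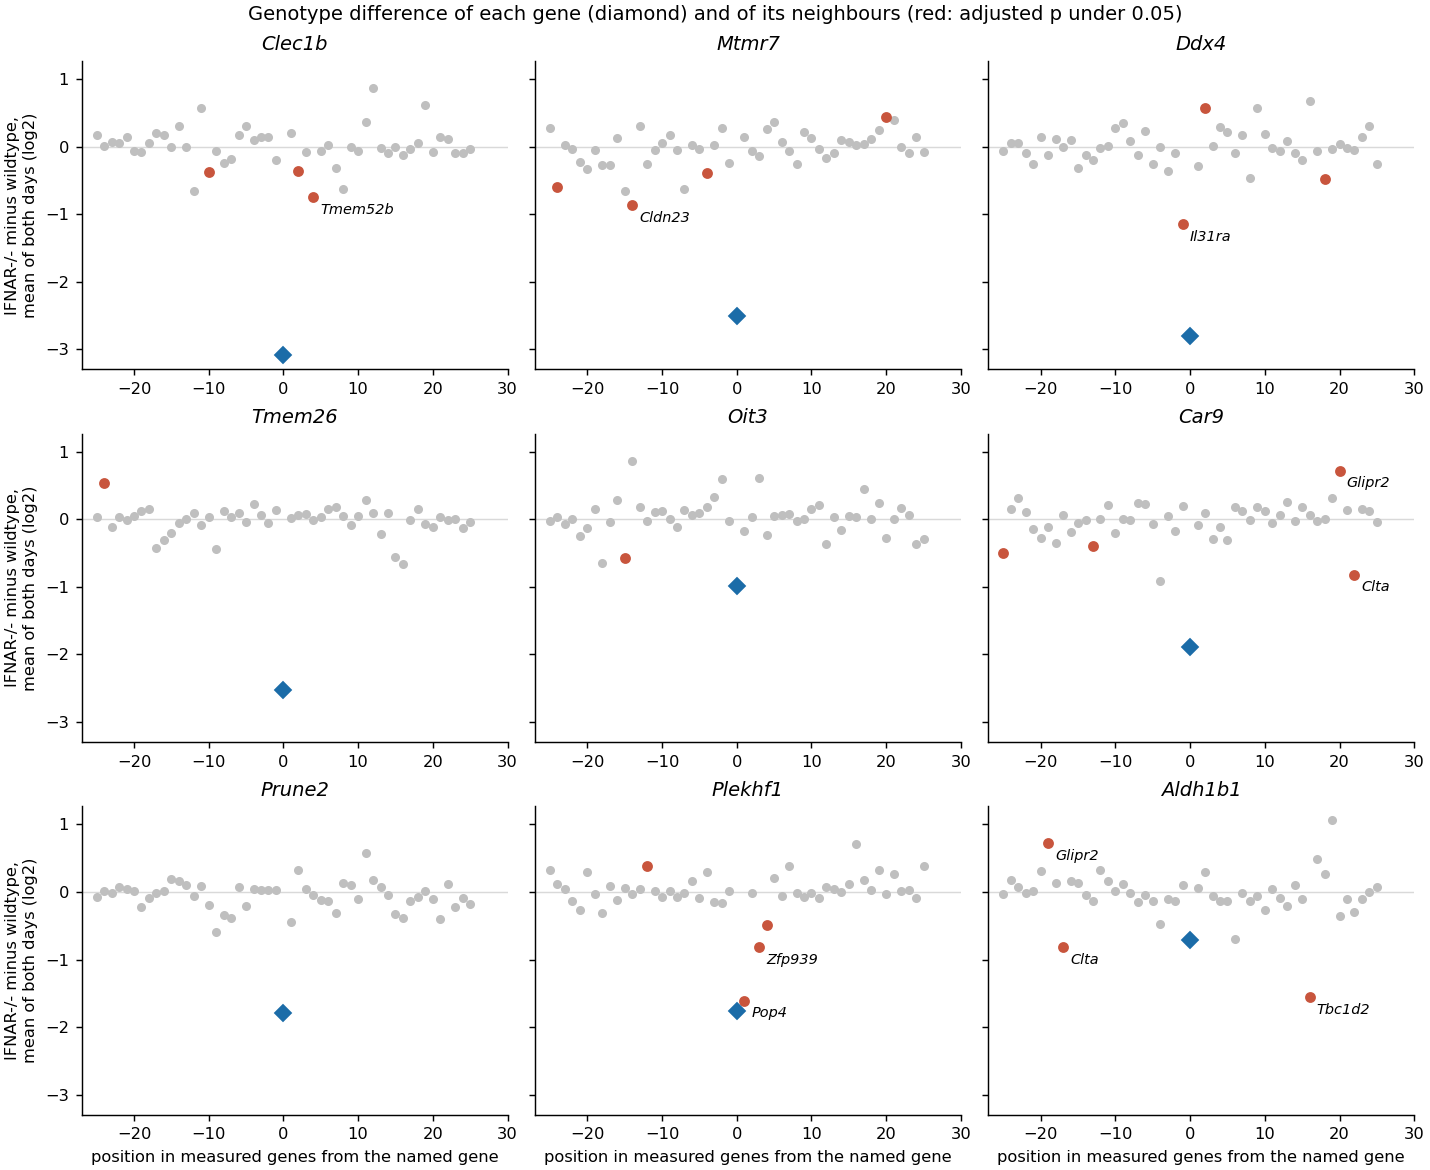
Genotype difference over both days (y axis, IFNAR-/- minus wildtype, log2) of each of the 9 genes (blue diamond) and of 25 measured genes on each side in chromosome order (x axis, position in measured genes); red points have an adjusted p under 0.05 and those of at least 0.7 in size are named. Most neighbours lie near 0; Pop4 beside Plekhf1 reaches -1.61 and Il31ra beside Ddx4 -1.15.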

How the data were processed

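RNA of pulmonary CD11c+ cells was hybridised to 12 Affymetrix mouse arrays, 1 per mouse. Per the submitters' processing notes the authors used RMA, with no version given. The deposited values are a linear ratio of each probe set to about its own median over the 12 arrays. The authors do not state this; it was read from the values (median within 0.02 of 1 for 100% of 45101 probe sets, 3 values missing). Signal over background is thus unknown, and precision is set by how many arrays there are.

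After log2, probe sets annotated to one gene only were averaged per gene. Of the resulting 18193 genes, 9183 rest on 1 probe set. Of the others, 64 probe sets were controls, 9160 carried no symbol and 932 several. All 12 arrays were fitted together, with 4 group means, in limma 3.58.1 on R 4.3.3 (8 residual degrees of freedom and a prior of 3.21, prior SD 0.171). Tests were two-sided, and calls needed a Benjamini-Hochberg adjusted p, taken over the whole table, under 0.05. "Over both days" is the mean of the genotype differences at day 7 and at day 14. Mice of a group are separate animals, and comparisons within a day or a genotype share arrays.

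The 9 genes and the gene lists were chosen with earlier results of these data known. The 9 genes, the 3 lowest p of each list, the nearest measured neighbours and the genes most correlated with the 9 were named by rule, and others were named after their values were seen. On data simulated for 18193 genes the day 14 against day 7 comparison in wildtype recovered 18% of true log2 changes of 0.5, 84% of those of 1, 94% of 2 and 100% of 3, and called 3 of 17993 unchanged genes. The simulation drew independent noise for each gene and changed 200 genes. The real comparison called 1451 genes on arrays whose control signals moved with time, so these rates need not hold for it. Mice with the same number in different groups are different animals, and their deviations from the group means correlated between -0.40 and 0.23, so the groups were not paired. The alternatives were another normalization, a pseudocount of 0.1, other probe set choices, another prior, array weights, a mouse number block, a filter on the SD, a 2-fold minimum, fewer arrays and leaving out each array. A further 4 fits were added after the data were seen: 2 pairs of arrays left out, and 2 covariates (the ratio of 5' to 3' control signal, and the poly-A signal), as was the count of neighbouring genes. Another motif is not reported here.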

Additional observations from a re-analysis of the deposited data

Results flagged for a closer look

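A change of the genotype difference between the days marks 3 genes. For Mtmr7 it was 2.33 ± 0.58 (SE, limma adjusted p = 0.0592, which does not pass). All 3 wildtype arrays were lower at day 14 than at day 7 and all 3 IFNAR-/- arrays higher. Among the interferon-stimulated genes used for comparison, Mx1 had the same opposite movement on every array, with a change of 3.02 ± 0.42 (adjusted p = 0.00867). Oas1a changed by 1.70 ± 0.30 (adjusted p = 0.0181), with wildtype arrays lower and IFNAR-/- arrays higher on average at day 14. With 3 arrays per group single arrays were not tested as outliers.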

How the results depend on the processing

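Between genotypes, 703 of 735 values of the 9 genes under alternatives moved by less than the spread between replicates, 28 moved further and 4 reversed. Many of these alternatives cannot move the values. The other prior, the mouse block, the SD filter, the 2-fold minimum and the fit of only the arrays compared keep the same group means. Leaving out a day 14 array cannot change the difference at day 7, nor the reverse. The count of 703 is therefore no measure of stability. In the tests over time and between the days 880 of 974 kept their direction and side of the threshold, 25 lost the call, 21 gained it and 48 reversed, in genes whose value was near 0 or, for Prune2, on single probe sets. The cause was not tested. The genes called were 762 between genotypes over both days, 1451 over time in wildtype, 2244 over time in IFNAR-/- cells, 2969 over time averaged and 451 for the change of the genotype difference. In that order, array weights gave 2221, 2688, 4576, 4778 and 1765 genes, a 2-fold minimum 181, 484, 705, 483 and 296, every probe set by itself 1307, 2573, 3906, 5307 and 926 probe sets, and leaving out both arrays high in epithelial markers 377, 820, 1177, 1849 and 200. With the arrays compared alone 1155 genes were called in IFNAR-/- cells over time. Without both arrays that stand apart 2428 were called in wildtype and 1136 in IFNAR-/- cells over time. With the 5' over 3' covariate 493 were called between genotypes, 154 over time in wildtype and 3 for the change of the difference, and with the poly-A covariate 822 over time in wildtype and 181 for the change. Leaving out 1 array at a time gave 376 to 1037, 716 to 2169, 1094 to 2520, 2088 to 3283 and 138 to 485 genes.

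Of the 9 genes, 3 were called over time in wildtype, 3 in IFNAR-/- cells, 5 averaged and 0 for the change of the difference. In IFNAR-/- cells this was 1 with a trended and robust prior, 5 with array weights and 1 without the arrays high in epithelial markers. In wildtype it was 5 with array weights. Averaged it was 3 with a 2-fold minimum and 3 without the arrays high in epithelial markers. For the change of the difference it was 1 with array weights, 1 among genes above the median SD and 1 with every probe set by itself. Leaving out 1 array gave 3 to 4 in wildtype, 1 to 4 in IFNAR-/- cells, 5 to 5 averaged and 0 to 1 for the change.

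Values that reversed follow as log2 differences. For Prune2 over time averaged, they were -0.22 with quantile normalization, -0.11 with array weights, -0.36 on 1455342_at, -0.04 without the arrays that stand apart and -0.01 without those high in epithelial markers. For Prune2 over time in IFNAR-/- cells, they were 0.03 on the probe set with the largest SD (1432198_at), 0.15 on 1430757_at and 0.37 on 1439274_at. In wildtype they were -0.13 with array weights and -0.23 on 1439274_at. Its change of the difference was 0.05 with array weights, 0.09 on 1430757_at and 0.60 on 1439274_at. Its genotype difference on 1430757_at was 0.01 at day 7, 0.10 at day 14 and 0.05 over both days, and on 1439274_at 0.10 at day 14. Averaged over genotypes Clec1b was at 0.03 with array weights and 0.08 without the arrays high in epithelial markers. Averaged, Mtmr7 was at 0.33 on 1427025_at, 0.01 with the 5' over 3' and 0.13 with the poly-A covariate. For Oit3 the change of the difference was -0.05 without the arrays high in epithelial markers and -0.17 with the poly-A covariate. Car9 over time was at -0.16 in IFNAR-/- cells with quantile normalization and -0.05 in wildtype with the 5' over 3' covariate, under which its change of the difference was 0.20.

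Leaving out 1 array at a time, in turn, gave these ranges for the results that reversed in some. Over time Prune2 ranged from -0.30 to 0.29 in wildtype, from -0.13 to 0.03 in IFNAR-/- cells and from -0.18 to 0.12 averaged, and its change of the difference from -0.35 to 0.25. Car9 ranged from -0.01 to 0.18 over time in IFNAR-/- cells and from -0.19 to 0.06 for the change. Averaged over time Clec1b ranged from -0.86 to 0.14 and Mtmr7 from -0.45 to 0.10. The change ranged from -0.12 to 0.34 for Oit3 and from -0.20 to 0.02 for Aldh1b1.

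The mouse number as a replicate block, which the design does not support, gave 616, 1228, 1974, 2743 and 325 genes in the order above, and 3, 2, 5 and 0 of the 9. Of the 9, Tmem26 lost its call in IFNAR-/- cells (1.66, adjusted p = 0.0578) under the block. Precision is limited by 3 arrays per group, and signal over background is unknown.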
